A study of Mus musculus with 36 samples.

Results

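The genes described here are 10 regulators of blood stem and progenitor cells and of the myeloid lineage: the growth factor receptors Kit, Flt3 and Csf1r, the surface glycoprotein Cd34, and the transcription factors and cofactors Meis1, Gata2, Lmo2, Hhex, Cebpa and Cebpb. Their DNase I hypersensitive sites (DHS), stretches of open chromatin that the enzyme DNase I cuts readily, were all those that overlapped a gene body (GENCODE vM21, mm10) or the 10 kb on either side of it. This rule found 25 of the 52788 DHS measured, of which 14 lay within a gene body. Flt3 had 10 DHS, Hhex 4, Cebpb 4 and Lmo2 3, while Cd34, Cebpa, Meis1 and Csf1r had 1 each. Kit and Gata2 had 0 DHS. The consensus list holds sites called as peaks in every replicate of a group and left after a filter on low values, so 0 DHS means that none met those criteria, and not that the chromatin was closed.

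DNase-seq was performed on B3 cells, a mouse pre-B lymphocyte line that stands for the large cycling pre-B stage of B cell development. The Ikaros line carried an MSCV retroviral vector for haemagglutinin-tagged Ikaros fused to ERt2, the hormone-binding domain of the estrogen receptor, with an internal ribosomal entry site and GFP. The control line carried the same vector without Ikaros (ERt2-IRES-GFP). Both lines were collected at 0, 2, 6, 12, 18 and 24 h of 0.5 µM 4-hydroxytamoxifen (4-OHT), which brings ERt2 fusion proteins into the nucleus, with 3 replicates in each of the 12 groups and thus 36 libraries. Replicate numbers 4, 5 and 6 stand for batches 11, 12 and 13. Cells of the first time point were untreated and collected separately according to the methods. The labels, in contrast, name the drug for every sample and give this time point the same batches as the later ones. The labels describe 1 line of each kind, so Ikaros and any other difference between the lines cannot be told apart, at 0 h or later.

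Flt3, Kit and Csf1r are receptor tyrosine kinases that bind Flt3 ligand, stem cell factor and the colony stimulating factor Csf1 or interleukin 34, respectively. Flt3 and Kit act in early progenitors, including lymphoid ones, and Csf1r is the receptor of monocytes and macrophages. Meis1, Gata2, Lmo2 and Hhex act in stem and progenitor cells, and C/EBPα and C/EBPβ, the products of Cebpa and Cebpb, drive myeloid gene expression. In B cell development the progenitor genes are lowered as cells commit, a process in which Ikaros and Pax5 take part.

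The sequences of 4 of these DHS are given first, because the results on Flt3, Hhex, Cebpa and Meis1 turn on them. All are on the plus strand of mm10, while Flt3 and Meis1 are transcribed from the minus strand. The DHS over Flt3 exon 20, which codes for part of the kinase domain, lies at chr5:147340906-147341442, 59.3 kb into the gene, and its central 300 bp (chr5:147341024-147341323) are shown with the exon bases in capitals. The DHS 5.7 kb past the start of Cebpa, beyond the end of the gene (chr7:35124885-35125015), and the Meis1 intron DHS (chr11:18924820-18925320) are shown by the 300 bp around their centres (chr7:35124800-35125099 and chr11:18924920-18925219) with the letters of the motifs searched in capitals. The Cebpa DHS is 130 bp wide, so most of the bases shown for it flank the site. Of the Hhex promoter DHS (chr19:37434470-37435059) the 300 bp before the gene start are shown (chr19:37434510-37434809). They hold none of the motifs searched and are 75.3% G and C with 37 CpG, against 51% and 10 CpG in the Flt3 exon window.
Flt3 exon 20: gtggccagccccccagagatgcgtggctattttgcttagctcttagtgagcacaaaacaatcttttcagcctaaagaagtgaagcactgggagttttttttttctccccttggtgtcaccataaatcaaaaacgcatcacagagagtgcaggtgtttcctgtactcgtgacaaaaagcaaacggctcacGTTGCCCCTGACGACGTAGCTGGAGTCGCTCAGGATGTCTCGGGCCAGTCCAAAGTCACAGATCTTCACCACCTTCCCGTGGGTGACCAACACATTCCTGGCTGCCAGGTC
Cebpa, 5.7 kb: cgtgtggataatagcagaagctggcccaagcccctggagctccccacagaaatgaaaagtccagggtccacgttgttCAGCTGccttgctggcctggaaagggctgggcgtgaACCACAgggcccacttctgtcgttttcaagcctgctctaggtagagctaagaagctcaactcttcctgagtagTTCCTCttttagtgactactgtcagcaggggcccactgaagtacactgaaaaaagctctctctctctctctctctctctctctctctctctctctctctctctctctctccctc
Meis1 intron: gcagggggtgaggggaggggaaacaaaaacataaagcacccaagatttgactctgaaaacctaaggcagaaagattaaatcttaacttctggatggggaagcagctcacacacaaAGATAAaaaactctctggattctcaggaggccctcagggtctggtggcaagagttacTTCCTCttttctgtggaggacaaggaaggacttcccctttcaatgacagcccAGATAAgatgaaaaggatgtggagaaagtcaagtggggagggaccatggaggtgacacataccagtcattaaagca
Hhex promoter: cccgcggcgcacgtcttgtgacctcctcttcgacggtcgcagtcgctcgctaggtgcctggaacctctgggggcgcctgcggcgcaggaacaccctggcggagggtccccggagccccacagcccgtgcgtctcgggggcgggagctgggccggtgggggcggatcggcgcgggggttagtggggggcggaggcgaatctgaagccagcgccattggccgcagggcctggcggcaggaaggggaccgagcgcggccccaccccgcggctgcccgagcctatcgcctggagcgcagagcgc

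Windows of 300 bp around the centre of each DHS were searched on both strands for 6 short motifs, with ambiguous positions written as N. Of the 25 DHS 10, and of all DHS 46.1%, are at most 200 bp wide, so the windows run past their ends and a match can lie outside the site. The Ikaros core TGGGAA was present in 6 of the 25 windows (24%), against 24.67% of all 52788. The core of PU.1 and other Ets factors, GAGGAA, was present in 11 of 25 (44%), against 32.44% of all windows, and the E-box CAGCTG in 7 of 25 (28%), against 19.67%. GGAA ends both the Ikaros and the Ets core, but the letters before it keep the matches apart. The GATA core AGATAA was found in 2 of 25 (8%; 11.88% of all), with 2 matches in the Meis1 intron and 1 downstream of Lmo2. The Runx core TGTGGT was found in 6 of 25 (24%; 27.31% of all) and the C/EBP core TTGCNNAA in 2 of 25 (8%; 11.59% of all). In windows of 100 bp the Ikaros core, the C/EBP core and the E-box were each in 4% of the 25 (8.614%, 3.793% and 8.333% of all), the Ets core in 24% (14.26%), the GATA core in 8% (2.809%) and the Runx core in 20% (14.26%), so the GATA, Runx, C/EBP and E-box shares changed sides of the background with the window. A match is a run of letters and not a shown binding site.

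Accessibility is given as deposited, on a log2 scale of read density per DHS length after the authors' noise correction. Whether levels of narrow and broad DHS can be compared on this scale without bias was not tested, so rankings by level are descriptions. Library medians lay between 3.90 and 4.11. The methods state a minimum sequencing depth for each replicate, but the read count behind each value is unknown. The data are from bulk samples, in which fewer open cells and less cutting per cell cannot be told apart. Pre-B identity was visible in the table, as 9 of 10 pre-B marker genes (Blnk, Cd79a, Cd79b, Ebf1, Igll1, Il7r, Pax5, Rag1 and Vpreb1) had a promoter DHS, one within 1000 bp of a transcription start site, with a median level of 5.13. T cell markers had promoter DHS in 0 of 5 genes, muscle and liver markers in 0 of 5, erythroid markers in 2 of 5 and myeloid effector and surface genes in 2 of 10.

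Of the 10 genes, 2 had promoter DHS, Lmo2 and Hhex, against 7 of 14 other progenitor factors, 6 of 8 other myeloid transcription factors and 3 of 6 other cytokine receptors. Both Lmo2 promoter DHS lay 11.6 and 12.1 kb into the gene, at the start of shorter transcripts. The other 20 DHS were 7 in introns, 2 in exons, 5 upstream and 6 downstream of a gene. Several DHS also lie in or near other annotated genes. The DHS 76.8 kb past the start of Flt3 lies within 1000 bp of a start of Urad but outside the body of that gene. The 3 DHS upstream of Cebpb lie in the body of Tmem189, and the Hhex promoter DHS overlaps Gm38345 within 1000 bp of a start of that gene. The mean level over all 36 libraries ranged from 2.99 (Meis1 intron, above 4.51% of all DHS) to 4.82 (3.6 kb before Cebpb, above 85.6%). The median of the 25 was 3.87, against 3.95 for all DHS, and 12 of 25 were above the latter. Their median width was 500 bp and their median GC content 50%, the same as for all DHS. The promoter DHS outside the 10 genes most like the highest of them, the one 3.6 kb before Cebpb, were those of Gm41336 (Pearson r = 0.803), Gbp3 (0.777) and AC026385.1 with Mir7b (0.776). These are descriptions over 36 libraries among 13651 promoter DHS, and the libraries share lines, batches and the noise correction.

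To ask where the Ikaros line differed from the control line, the line difference (Ikaros minus control, log2) was tested at each time and averaged over 2 to 24 h, with limma and Benjamini-Hochberg adjustment over all 52788 DHS and a threshold of 0.05. Averaged over the 5 times with drug, 12 of 25 DHS (48%) passed, against 29.5% of all DHS. Of these, 9 were higher in Ikaros cells (17.1% of all DHS) and 3 lower (12.4% of all). The median line difference was 0.072 for the 25 and 0.041 for all DHS. Under quantile normalization these medians were -0.009 and -0.004. With the lowest 25% of DHS filtered out they were -0.004 for the 20 left and -0.022 for all left. Higher were 5 of 10 Flt3 DHS and the DHS of Csf1r, Cebpa, Meis1 and 1 of 4 of Hhex. Lower were 1 DHS each of Flt3, Cebpb and Lmo2. The plot of averaged line differences shows all 25.

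**Figure D1:**
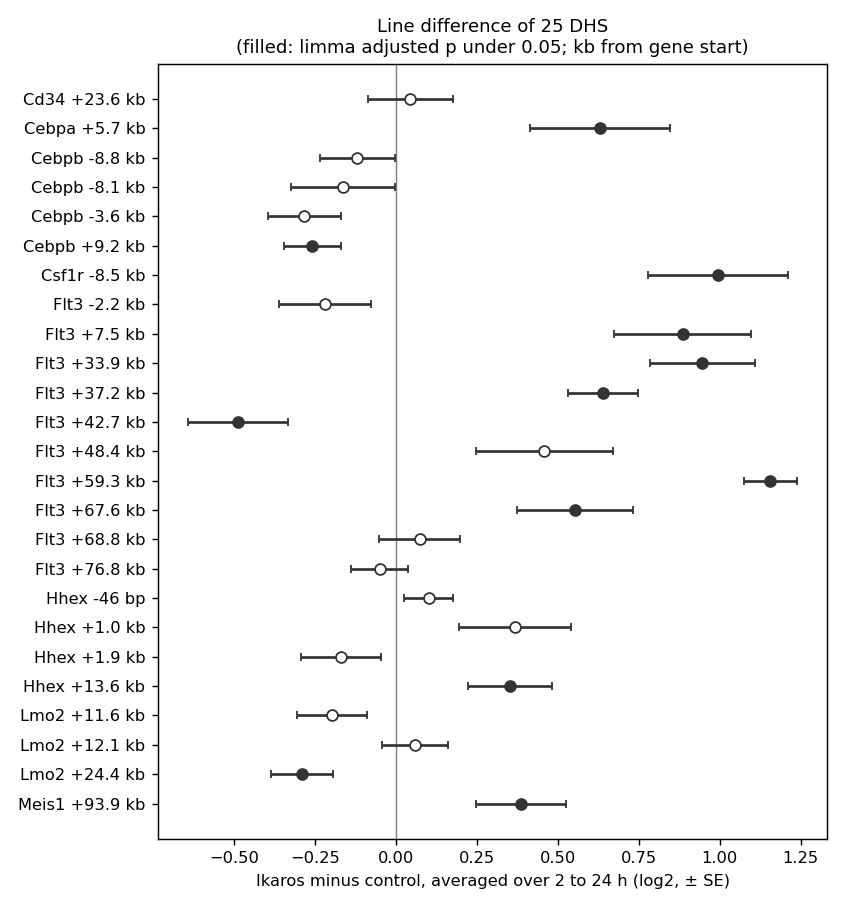
Line difference (Ikaros minus control, log2) averaged over 2 to 24 h for each of the 25 DHS, named by gene and by distance of the centre from the gene start. Points are limma estimates with SE from 36 libraries, and the 12 filled points passed an adjusted p of 0.05; the 4 largest values are those of Flt3 at +59.3, +33.9 and +7.5 kb and of Csf1r.

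The Flt3 exon 20 DHS was higher in Ikaros cells at every time, including before drug. At 0 h it held 4.59, 4.92 and 4.52 in the Ikaros libraries and 3.97, 3.82 and 4.00 in the control libraries. At 2 h the values were 5.01, 4.58 and 4.60 in Ikaros and 3.45, 3.85 and 3.66 in control cells. At 6 h they were 4.82, 4.90 and 4.87 against 3.86, 4.04 and 3.38. The lines thus did not overlap at any of these times. At 12 h the Ikaros libraries held 4.69, 4.73 and 5.02 and the control libraries 4.12, 3.65 and 3.69. At 18 h the values were 5.03, 4.80 and 4.88 against 3.33, 3.48 and 3.82, and at 24 h 4.92, 5.15 and 4.77 against 3.72, 3.80 and 3.58. Over all times the lowest of the 18 Ikaros values lay above the highest of the 18 control values. How many of all DHS separate the lines in such ways was not counted. The same holds for the library counts and statements on overlap given below, which are descriptions only.

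The line difference at this DHS was 0.75 before drug (limma adjusted p = 0.00867). With drug it was 1.07, 1.10, 0.99, 1.36 and 1.25 in order of time (limma adjusted p = 0.0098, 0.00361, 0.0079, 0.000239 and 0.000673), each with an SE of 0.18. Averaged over 2 to 24 h it was 1.16 (SE 0.08, limma adjusted p = 7.19e-11), and within batches 1.20, 1.07 and 1.20 for replicates 4, 5 and 6. It was the 1 DHS of the 25 that passed at 2, 6, 12, 18 and 24 h, times at which 0.195%, 0.578%, 1.31%, 0.699% and 1.33% of all DHS passed. Only 13 of 52788 DHS (0.0246%) passed at all 6 times, of which 10 were higher in Ikaros cells each time. In size it was not extreme, at rank 364 from the top for the averaged difference. The averaged call held in 39 of 39 alternatives, while the calls at single times were lost in 2 to 5 of 15 each, among them the fit to the 6 libraries of 1 time at all times but 24 h. The 2 h call was lost without Ikaros 2h replicate 4 and the 12 h call without Ikaros 12h replicate 6.

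This DHS did not pass for change over time. The line difference was 0.50 larger at 24 h than at 0 h (SE 0.26, limma adjusted p = 0.228). From 2 h to 24 h it differed by 0.22 in the Ikaros line (SE 0.18, adjusted p = 1) and by 0.05 in the control line (SE 0.18, adjusted p = 0.994).

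**Figure D2:**
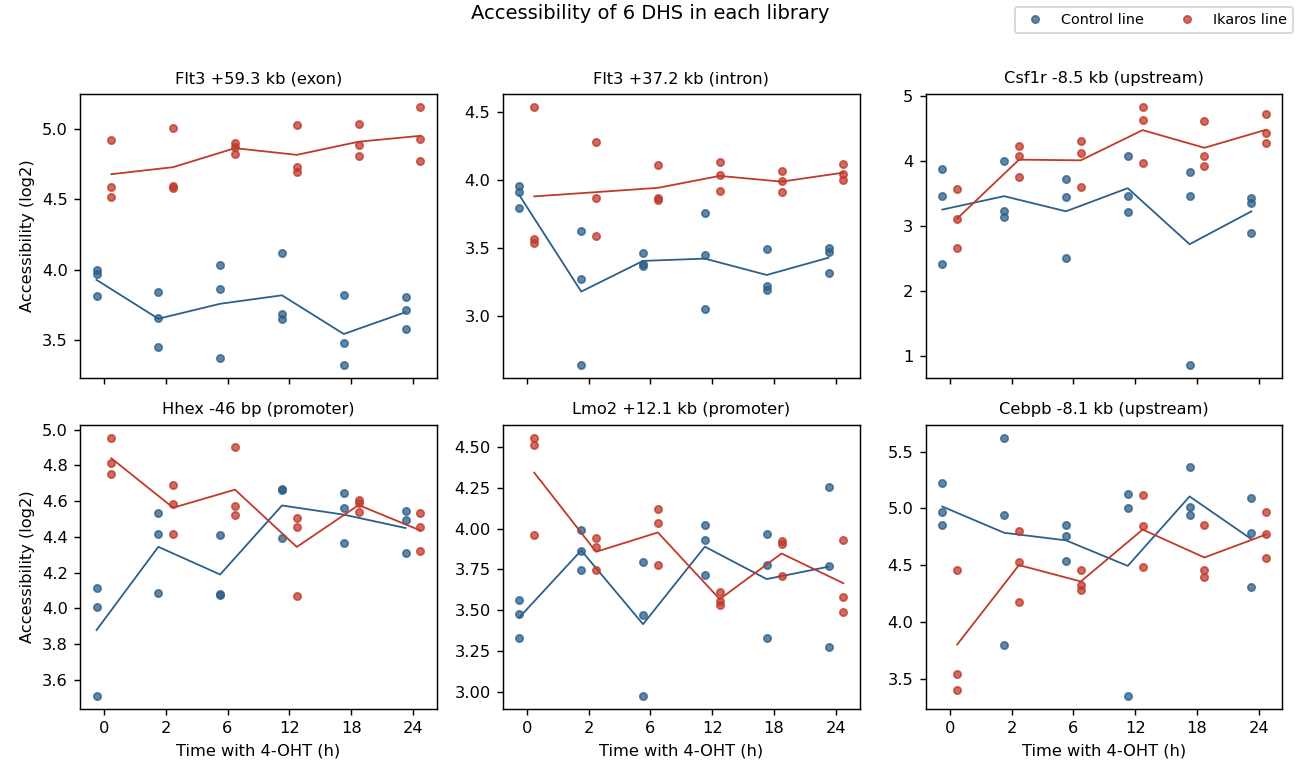
Accessibility (log2) of 6 DHS in each library by time with 4-OHT; each point is 1 library, 3 for each line and time, and lines join the means. The Flt3 exon DHS separates the lines at all 6 times, whereas the Hhex and Lmo2 promoter DHS and the DHS 8.1 kb before Cebpb differ at 0 h and overlap at 24 h. In between, Ikaros libraries also lie above control libraries at Hhex at 6 h. They lie below them at Lmo2 at 12 h and before Cebpb at 6 and 18 h.

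Across Flt3, which spans chr5:147330741-147400489, neighbouring DHS went different ways. The intron DHS 33.9 kb into the gene held 3.61, 3.90 and 4.28 (lowest, median and highest of 15 Ikaros libraries, 2 to 24 h) and 1.95, 2.95 and 3.91 in 15 control libraries. Its averaged line difference was 0.95 (SE 0.16, limma adjusted p = 7.21e-05), with 7 Ikaros libraries above every control library. The intron DHS at 37.2 kb held 3.59, 4.00 and 4.28 in Ikaros and 2.64, 3.38 and 3.76 in control libraries. In this DHS 14 of 15 Ikaros libraries lay above every control library, and the averaged difference was 0.64 (SE 0.11, limma adjusted p = 7.08e-05). At 0 h its line difference was -0.01 (adjusted p = 0.988), and the 3 control libraries held 3.80, 3.96 and 3.91. All 15 later control libraries lay below these 3.

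The intron DHS at 7.5 kb, the nearest called DHS to the gene start, held 3.60, 4.01 and 4.45 in Ikaros and 1.87, 3.09 and 4.28 in control libraries from 2 h on (difference 0.88, SE 0.21, limma adjusted p = 0.0024). The DHS at 67.6 kb, which overlaps coding exon 23, differed by 0.55 (SE 0.18, limma adjusted p = 0.0208). The calls at 33.9 and 37.2 kb held in every alternative. The call at 7.5 kb was lost without replicate 6, and the one at 67.6 kb without replicate 4 or 6.

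The intron DHS at 42.7 kb was the most accessible of the Flt3 sites and went the other way. It held 4.32, 4.54 and 4.90 in Ikaros and 4.05, 5.10 and 5.85 in control libraries, and 10 control libraries lay above every Ikaros library. Its averaged difference was -0.49 (SE 0.15, limma adjusted p = 0.0177), a call that was lost under quantile normalization and without replicate 5 or 6. The remaining 4 Flt3 DHS did not pass. Their averaged differences were -0.22 at 2.2 kb before the gene (SE 0.14), 0.46 at 48.4 kb (SE 0.21), 0.07 at 68.8 kb (SE 0.13) and -0.05 at 76.8 kb, near the Urad start (SE 0.09), with limma adjusted p-values of 0.255, 0.103, 0.702 and 0.694.

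**Figure D3:**
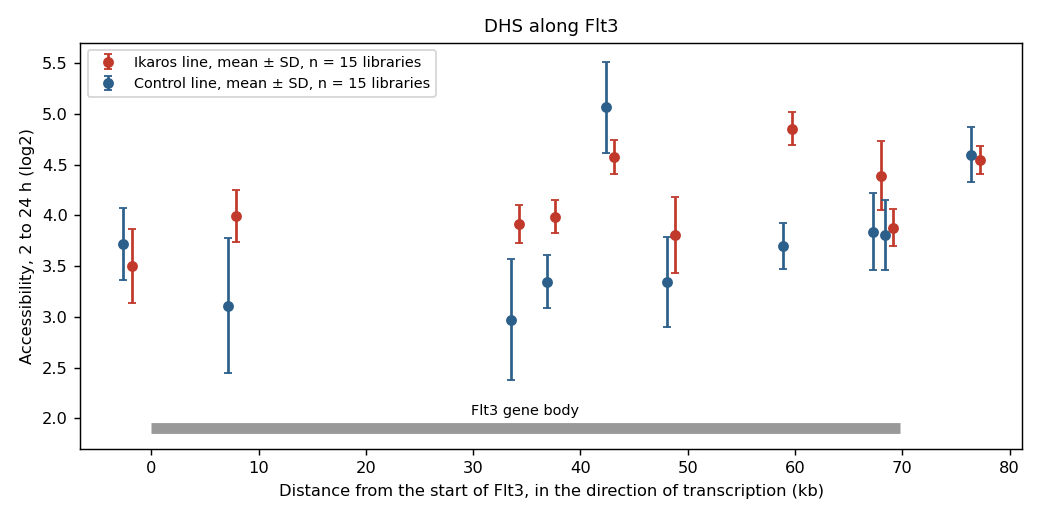
Accessibility (log2) of the 10 Flt3 DHS by distance from the gene start in the direction of transcription (kb); points and bars are the mean and SD over 15 libraries of each line from 2 to 24 h. The averaged line difference was called higher in Ikaros cells at +7.5, +33.9, +37.2, +59.3 and +67.6 kb and lower at +42.7 kb. The bars of the lines overlap at every DHS except those at +33.9, +37.2 and +59.3 kb.

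The median averaged difference was 0.504 over the 10 Flt3 DHS. In the flanks from 10000 bp to 250000 bp beyond the gene, chosen after the values were seen, the median over 18 DHS was 0.254, with 6 called higher and 1 lower and a range from -0.44 to 1.12. The difference between gene and flanks was not tested.

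Csf1r had 1 DHS, 8.5 kb before the gene on chromosome 18. From 2 h on it held 3.60, 4.23 and 4.83 in Ikaros and 0.87, 3.43 and 4.08 in control libraries, with 10 Ikaros libraries above every control library. The averaged difference was 0.99 (SE 0.22, limma adjusted p = 0.000978), and 0.95, 1.05 and 0.99 within the batches of replicates 4, 5 and 6. The call held in 39 of 39 alternatives. The control value of 0.87, in replicate 4 at 18 h, stood far below the rest, and without that library the averaged difference was 0.81. The batch value of 0.95 includes that library and was not recomputed without it. In replicate 4 the Ikaros and control libraries held 4.23 and 4.00 at 2 h and 4.13 and 3.72 at 6 h. At 12 h they held 3.96 and 4.08, and at 24 h 4.43 and 3.43. The likeness of the 3 batch values thus depends on the low library.

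The Csf1r line difference was -0.14 before drug and then, in order of time, 0.56, 0.78, 0.89, 1.48 and 1.25, each with an SE of 0.48. None of the 6 passed the threshold (limma adjusted p from 0.152 to 0.885), and without Control 18h replicate 4 the 18 h value was 0.56. At 0 h the Ikaros libraries held 3.56, 3.11 and 2.67 and the control libraries 3.46, 2.42 and 3.88, so the lines overlapped. The difference was 1.39 larger at 24 h than at 0 h (SE 0.68), which did not pass (limma adjusted p = 0.201).

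The genes of the C/EBP factors were taken next, without a test between them. The Cebpa DHS, which carries an Ets core and a Runx core, was among the least accessible (mean 3.24, above 10.8% of DHS). From 2 h on it held 2.91, 3.47 and 4.03 in Ikaros and 1.38, 2.97 and 4.06 in control libraries, which overlapped. Its averaged difference was 0.63 (SE 0.22, limma adjusted p = 0.0277), and within batches 0.57, 0.19 and 1.13. The call was lost in 9 of 38 alternatives, among them quantile normalization (0.31) and the fits without replicate 4 or 6, Control 2h replicate 6, Control 6h replicate 5, Control 24h replicate 6, Ikaros 2h replicate 6 or Ikaros 6h replicate 4.

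All 4 Cebpb DHS had negative averaged differences, of which 1 passed. The DHS 9.2 kb past the gene start, in A530013C23Rik, held 4.13, 4.30 and 4.53 in Ikaros and 3.86, 4.63 and 4.85 in control libraries, with 11 control libraries above every Ikaros library. The difference was -0.26 (SE 0.09, limma adjusted p = 0.0249), and the call was lost under quantile normalization, with trends removed and without replicate 5 or 6. The most accessible DHS, 3.6 kb before the gene, differed by -0.28 (SE 0.11, adjusted p = 0.0595), and those at 8.8 and 8.1 kb before it by -0.12 and -0.16 (adjusted p = 0.461 and 0.47).

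Meis1, a homeobox cofactor of Hox proteins, had 1 intron DHS 93.9 kb into the gene, which was the least accessible of the 25. It held 2.68, 3.11 and 3.55 in Ikaros and 2.05, 2.65 and 3.25 in control libraries from 2 h on. The averaged difference was 0.39 (SE 0.14, limma adjusted p = 0.0367). The call was lost in 17 of 38 alternatives, among them 15 of 33 fits that left out a replicate or a library, and under quantile normalization the value was -0.09. The DHS 13.6 kb past the start of Hhex differed by 0.35 (SE 0.13, adjusted p = 0.04), a call lost in 22 of 38 alternatives and 20 of the 33 that left out a replicate or a library.

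Lmo2, the LIM protein that bridges Tal1 and GATA factors, had its called DHS 24.4 kb past the gene start, just beyond the gene. It held 3.64, 4.00 and 4.15 in Ikaros and 3.56, 4.23 and 4.56 in control libraries, with 12 control libraries above every Ikaros library. The difference was -0.29 (SE 0.09, limma adjusted p = 0.0205), and -0.27, -0.38 and -0.23 within batches. It was lost without replicate 4 or 5. The Cd34 DHS, 23.6 kb past the gene start and beyond its end, differed by 0.04 (SE 0.13, adjusted p = 0.83), with 0.46 in the batch of replicate 5 and -0.11 and -0.22 in the others.

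**Figure D4:**
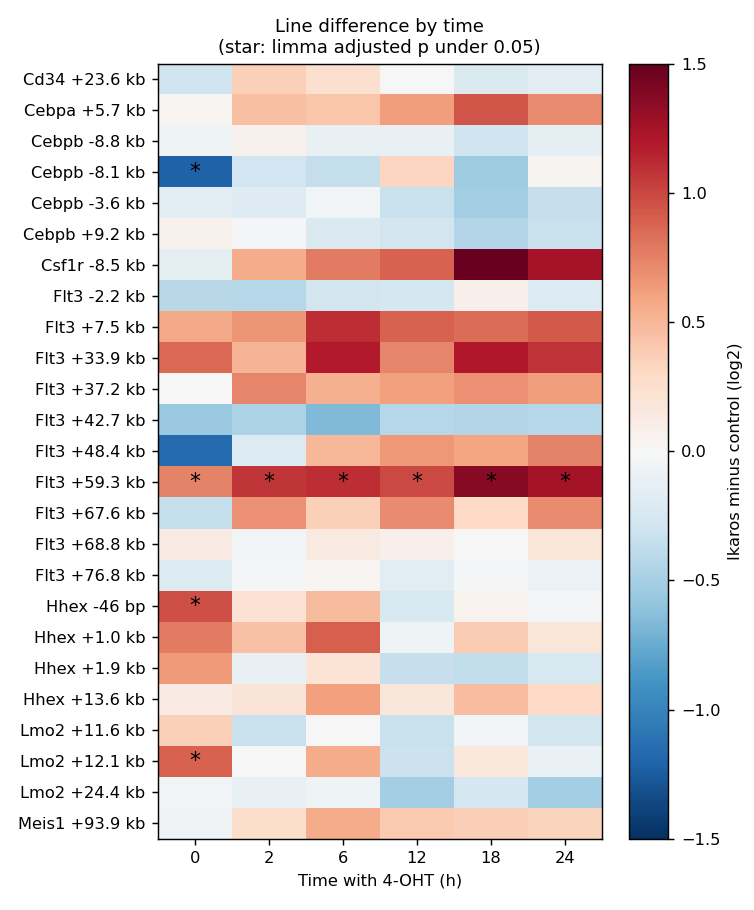
Line difference (Ikaros minus control, log2, colour) of the 25 DHS at each time with 4-OHT, named by gene and distance from the gene start; stars mark limma adjusted p under 0.05. Of the 9 starred cells, 6 belong to the Flt3 exon 20 DHS and 3 to the 0 h column at the promoters of Hhex and Lmo2 and before Cebpb.

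Before drug, at 0 h, 4 of 25 DHS (16%) passed, against 12.9% of all DHS. That share was 2.95% with trends in level, GC content and width removed, and 0.00379% (2 DHS) when only the 0 h groups were fitted, where 1 and 0 of the 25 passed. Of these, 3 were higher in Ikaros cells (7.81% of all) and 1 lower (5.04% of all). Besides the Flt3 exon these were the promoter DHS of Hhex and Lmo2 and a DHS before Cebpb. In these 3 no line difference from 2 h on passed. At 0 h 7 of 25 DHS (28%) had an unadjusted limma p under 0.05, against 28.1% of all DHS.

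The Hhex promoter DHS, at the start of a homeobox gene of early haematopoiesis, held 4.95, 4.81 and 4.75 in Ikaros and 4.01, 4.12 and 3.51 in control libraries at 0 h. The lines did not overlap, and the difference was 0.96 (SE 0.17, limma adjusted p = 0.000769). At 2 h the group means were 4.56 ± 0.14 and 4.34 ± 0.23 (SD, n = 3 each). At 6 h the Ikaros libraries held 4.52, 4.57 and 4.90 and the control libraries 4.08, 4.08 and 4.41, again without overlap. At 24 h the Ikaros libraries held 4.32, 4.53 and 4.45 and the control libraries 4.49, 4.31 and 4.55, which overlapped. The control mean was 3.88 ± 0.32 at 0 h and 4.45 ± 0.13 at 24 h, and the Ikaros mean 4.84 ± 0.10 and 4.44 ± 0.11. The means were 0.96 apart at 0 h and 0.01 apart at 24 h, with control above Ikaros at the latter.

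The fall of this difference from 0 h to 24 h was -0.98 (SE 0.24, limma adjusted p = 0.0191), the 1 of 25 DHS that passed, against 6.26% of all DHS. It was also the 1 of 25 with an interaction of line and time (F = 6.38, limma adjusted p = 0.044), against 1.1% of all DHS. With the replicate block the interaction had an adjusted p of 0.0667. The 0 h difference was -0.03 once trends with level, GC content and width were removed, so the call and its direction ended there. The 2 other Hhex promoter DHS, at 1.0 and 1.9 kb, differed by 0.78 and 0.64 at 0 h (adjusted p = 0.183 and 0.117).

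The Lmo2 promoter DHS 12.1 kb into the gene held 4.51, 4.55 and 3.96 in Ikaros and 3.57, 3.48 and 3.33 in control libraries at 0 h (difference 0.89, SE 0.23, limma adjusted p = 0.0118). The lines did not overlap at 0 h. Nor did they at 12 h, with Ikaros libraries at 3.56, 3.61 and 3.53 and control libraries higher, at 3.72, 4.02 and 3.93. At 24 h the values were 3.93, 3.49 and 3.58 against 3.77, 4.25 and 3.28, which overlapped (difference -0.10, adjusted p = 0.894). The change of -0.99 from 0 h to 24 h did not pass (SE 0.33, adjusted p = 0.06), and the 0 h call was lost in 7 of 15 alternatives, among them those that left out Control 0h replicate 6 or Ikaros 0h replicate 4.

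The 300 bp window of the DHS 8.1 kb before Cebpb holds an Ikaros core, which may lie outside the 138 bp site. This DHS was the only one of the 25 called lower at 0 h. It held 3.41, 3.55 and 4.46 in Ikaros and 4.97, 4.86 and 5.22 in control libraries (difference -1.21, SE 0.36, limma adjusted p = 0.0257), without overlap. At 6 h the values were 4.46, 4.33 and 4.28 against 4.54, 4.76 and 4.86, also without overlap. The same held at 18 h, with 4.86, 4.40 and 4.46 against 5.01, 5.36 and 4.94. At 24 h the values were 4.57, 4.78 and 4.97 against 5.09, 4.31 and 4.79, a difference of 0.04 (adjusted p = 0.977). The 0 h call was lost in 9 of 15 alternatives, among them leaving out any of Control 0h replicate 4 or 6 and Ikaros 0h replicate 4 or 5. According to the methods the untreated cells were collected apart, though the labels give them the batches of the later times. If they were, the collection and the drug cannot be told apart in a change from 0 h.

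The largest value among those that did not pass was the change from 0 h to 24 h at the Flt3 intron DHS 48.4 kb into the gene, 1.89 (SE 0.67, limma adjusted p = 0.0778). It rests in part on 1 library, Ikaros 0h replicate 4, which held 0.48 while the other Ikaros 0 h libraries held 3.34 and 3.75. The control libraries held 3.60, 3.89 and 3.53 at 0 h. The change without the low library is not given here. The change at 8.1 kb before Cebpb was 1.25 (SE 0.51, adjusted p = 0.121).

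Under continued drug, change within a line was tested from 2 h to 24 h. In the Ikaros line 0 of 25 DHS passed in the limma test (0% of all DHS), with 0 of 25 and 37 of all 52788 at an unadjusted p under 0.05. The 37 are 0.0701% of all DHS. The shared spread of the fit was larger than that of these groups (median SD over the 25 DHS 0.20 in Ikaros cells from 2 h on, 0.34 in control cells and 0.46 in Ikaros cells at 0 h), so a count of 0 here does not show that there was no change. Fitted on the groups compared alone, 0 of the 25 and 0 of all DHS passed. In the control line 0 of 25 passed (0.00947% of all DHS), with 0 of 25 and 3440 of all DHS at an unadjusted p under 0.05. The largest changes in the Ikaros line were 0.48 at 48.4 kb into Flt3 (SE 0.47), 0.46 before Csf1r (SE 0.48) and 0.36 at 67.6 kb into Flt3 (SE 0.40), all with an adjusted p of 1. In the control line they were 0.47 at Cd34 (SE 0.29, adjusted p = 0.86) and -0.47 and -0.39 at 48.4 and 33.9 kb into Flt3 (SE 0.47 and 0.36, adjusted p = 0.949 and 0.936).

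Other genes of these pathways were examined by the same rule. Over all DHS, 17.1% were called higher and 12.4% lower from 2 h on (median 0.041), and 7.81% higher and 5.04% lower at 0 h, and the lists are described beside these shares with no test. The ligands had 6 DHS in 3 of 4 genes, with none at Kitl, which encodes stem cell factor. From 2 h on 1 was called higher and 1 lower, with a median line difference of -0.15. The promoter of Flt3l, which encodes Flt3 ligand, was lower by -0.37 (limma adjusted p = 0.000291), after a 0 h difference of 0.59 (adjusted p = 0.0161). An intron DHS of Il34, the second ligand of Csf1r, was higher by 0.31 (adjusted p = 0.0184). Of 11 DHS at the other cytokine receptors, 0 were called higher and 4 lower (median -0.23), among them the promoter DHS of Csf2ra, the GM-CSF receptor alpha chain, with -0.58 (adjusted p = 0.000145).

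Of 57 DHS at 13 further progenitor factors, 10 were higher and 13 lower (median 0.00). Fli1, an Ets factor of stem cells and megakaryocytes, had an intron DHS (chr9:32425408-32425932) higher by 1.52 (limma adjusted p = 2.23e-12), also by 1.51 at 0 h (adjusted p = 0.000152). Lyl1, a relative of Tal1, had 4 of 5 DHS called lower, with -0.69 in an exon (adjusted p = 1.99e-06). Its promoter was lower by -0.32 from 2 h on (adjusted p = 0.0115) and higher by 0.95 at 0 h (adjusted p = 0.00404). Of 24 DHS at the other myeloid transcription factors, 4 were higher and 6 lower (median 0.01). Klf4 was higher by 0.84 (adjusted p = 0.00106), the promoter of the immediate early gene Egr1 lower by -0.71 (2.13e-08), and an intron DHS of Spi1, which encodes PU.1, lower by -0.49 (0.0041). At 0 h that Egr1 DHS was higher by 0.46 (adjusted p = 0.046), and 7 of these 24 DHS were called higher and 0 lower.

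Of 24 DHS at myeloid effector and surface genes, 6 were higher and 5 lower (median -0.07). Itgam, the integrin CD11b, had an intron DHS higher by 0.76 (limma adjusted p = 2.06e-07), and the promoter of Lyz2, the macrophage lysozyme, was higher by 0.60 (adjusted p = 0.00448). DHS of Prtn3 and Elane were lower, and these neighbouring genes share the 3 DHS concerned. Among lineage markers, 6 of 51 pre-B DHS were higher and 12 lower (median -0.11), 0 of 8 T cell DHS higher and 4 lower (-0.24), 2 of 9 erythroid DHS higher and 2 lower (0.20), and 0 of 5 muscle and liver DHS higher and 2 lower (-0.25). Their part in the results above was not tested.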

How the data were processed

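DNase-seq libraries of 3 replicates of each line and time were analysed. According to the methods, reads were trimmed by the authors, aligned to mm10 with Bowtie2, and peaks were called with HOMER in each replicate. Sites found in all replicates of a time were kept, reads were counted per DHS with bedtools, and low DHS were filtered. The authors then scaled by RPKM and TMM and applied ARSyN, which removes structured noise with the groups in the model. The deposited values are log2 after these steps. Since the correction used the groups, group means are not independent, p-values measure the spread that was left, and every adjusted p printed may be too small. The start coordinate may count from 0 or 1.

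Line differences were tested with limma 3.58.1 (R 4.3.3; lmFit, eBayes with trend) on 12 group means over 36 libraries, with 2-sided tests and adjustment over 52788 DHS. The same fit was tested on simulated data with independent noise and, for each DHS, the same spread in all groups. Such data lack the unequal spread of the real groups and the noise correction, so they cannot show whether the p-values here are too small. Genes, lists and motifs were chosen with earlier results of these data known. Named are promoter DHS and the most accessible DHS of each gene, every called DHS, the 3 largest values of each comparison and the 3 most similar promoter DHS. Alternatives were a replicate block, only the groups compared, a spread per group, quantile normalization, trends removed, a filter on the lowest 25% of DHS, and leaving out replicates or single libraries. Replicate numbers mark shared batches in the labels. Deviations from group means had a median correlation of -0.0103 for the 198 library pairs with the same number and 0.00789 for the 396 others. Sequences were read from GRCm38 with pysam 0.24.0.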

Additional observations from a re-analysis of the deposited data

Results flagged for a closer look

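The Hhex promoter DHS differed between times in its line difference by 2 tests on the same libraries. The interaction of line and time had F = 6.38 (limma adjusted p = 0.044), a call lost in 33 of 44 alternatives, 29 of which left out a replicate or a single library of any time. The line difference changed by -0.975 from 0 h to 24 h (limma adjusted p = 0.0191), a call lost in 6 of 21 alternatives, among them the fits without replicate 4, 5 or 6 and without Control 0h replicate 6. With 3 libraries a group, single libraries were not searched for outlying values.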

How the results depend on the processing

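Counts of called DHS among the 25 were recomputed under each alternative. With the replicate block they stayed at 4 before drug, 1 at each later time, 12 for the averaged difference and 1 for the change to 24 h, and the interaction had 0 instead of 1. With a spread per group the interaction and 2 h had 0, 0 h had 1, 18 h had 3 and 24 h had 2, while the share of all DHS called went from 12.9% to 2.8% at 0 h, from 0.699% to 3.07% at 18 h and from 1.33% to 6.12% at 24 h. Fitting only the groups compared gave 0 at 0, 2, 6, 12 and 18 h, 2 at 24 h and 0 for the change to 24 h, with 0.00379% of all DHS called at 0 h and 1.33% at 24 h. With trends removed the counts were 1 at 0 h and 0 for that change and the interaction, with 2.95%, 0.332% and 0.0303% of all DHS called. Quantile normalization gave 2 for that change and 0 for the interaction, with 2.55% and 0.369% of all DHS called. Leaving out replicates or single libraries gave 1 to 5 at 0 h, 0 to 1 at each later time, 5 to 13 for the averaged difference, 0 to 3 for the change to 24 h and 0 to 1 for the interaction. The averaged count was 7 without replicate 5 (0 of them lower) and 5 without replicate 6. In these fits 16.3% and 15.1% of all DHS were called, against 29.5% as reported. The single libraries that ended all calls at a time were Ikaros 2h replicate 4 and Ikaros 12h replicate 6. The 0 h count was 2 without Control 0h replicate 6 or Ikaros 0h replicate 4. The count for the change was 0 without Control 0h replicate 6, 2 without Control 24h replicate 6 or Ikaros 0h replicate 5, and 3 without Ikaros 0h replicate 6. The causes were not tested, except that fits with fewer libraries have fewer degrees of freedom.

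The split of averaged calls was 9 higher and 3 lower as reported, 6 and 2 under quantile normalization, 6 and 3 with trends removed and 5 and 3 of 20 DHS left by the filter on low values. Among all DHS the splits were, in the same order, 9043 and 6546, 7589 and 7203, 6307 and 6256, and 4545 and 6227. The shares of all DHS called were 29.5%, 28%, 23.8% and 27.2%, beside 12, 8 and 9 of 25 and 8 of 20 here. Besides the medians given above, direction turned in 4 values of single DHS: the Hhex promoter at 0 h (-0.030 with trends removed), the Meis1 intron (-0.093 under quantile normalization) and the change in the control line at 33.9 kb into Flt3 (0.317 without replicate 4, 0.013 without Control 24h replicate 4 and down to -1.036 without replicate 6). With no extension of the gene bodies 14 of 25 DHS remained. The read count behind each value is unknown and the number of libraries limits the precision.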
